A study of Oryza sativa with 6 samples.

Results

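A set of 10 genes of the small RNA machinery was followed in young rice (Oryza sativa) panicles of 8 to 10 cm: the Dicer genes DCL1, DCL3a, DCL4 and DCL5 (also called DCL3b), the RNA-dependent RNA polymerase gene RDR6 (SHL2), and the Argonaute genes AGO1a, AGO1b, AGO7 (SHL4), AGO18 and MEL1. They were picked as named genes of this machinery, by locus identifier and with earlier results of these data known, and all 10 were found among the 46732 loci of the expression table. The panicles came from the rice lines NIL-qigl1HD385 and NIL-qIGL1NIP, a near-isogenic pair: such lines are bred to be alike apart from a target locus, here one for grain length with an HD385 or a NIP version. Each line had 3 RNA-seq libraries. Both lines are labelled wild type, the labels name no treatment, and they give neither the number of plants in a library nor whether libraries were made from separate plants. The spread behind each p-value is thus that of these libraries and may be partly technical.

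Small RNAs guide the silencing of genes and transposons in plants. Dicers cut double-stranded RNA into small RNAs, RNA-dependent RNA polymerases make double-stranded templates, and Argonautes bind the small RNAs and act on matching transcripts. In grass inflorescences and anthers, transcripts cut under the guidance of a microRNA are made double-stranded by RDR6 and then diced in register into phased small interfering RNAs (phasiRNAs), with DCL4 giving the shorter class and DCL5 the longer one. MEL1 is known as a germ cell Argonaute of rice that binds phasiRNAs.

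Expression is given as RPKM, the reads of a gene per kilobase of its model, scaled to the library total, so that levels of different genes can be set side by side. The libraries held 43536754 to 52466060 reads. Reads recovered for the 10 genes ranged from 87 (AGO18 in NIL-qigl1HD385 replicate 2) to 11479 (AGO1a in the same library), over gene models of 3452 to 6583 bases. Across all tested loci, NIL-qigl1HD385 replicate 2 held the lowest of its line's 3 values at 52.0% of loci, and NIL-qIGL1NIP replicate 3 at 54.1%, so each of these libraries was lowest at more loci than the other libraries of its line (22.2 to 25.4%). All marker loci of floral organs, of meiosis, of the anther wall and tapetum, and of green leaf tissue that were looked up were detected in the tissue.

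All 10 genes were expressed in every library, and none passed the test between the lines. Levels were highest for AGO1a, AGO1b and DCL1 and lowest for AGO18 and AGO7. RDR6 had the smallest unadjusted p of the members and a higher mean in NIL-qigl1HD385, and AGO18, AGO7 and MEL1 had the largest negative differences. The AGO18 and MEL1 differences shrank when 1 library, NIL-qigl1HD385 replicate 2, was left out. The comparison was made with limma on log2(RPKM + 0.5) over the 23181 loci that averaged 0.5 RPKM or more, with calls made where the Benjamini-Hochberg adjusted p was under 0.05. By this rule 0.733% of the tested loci were called (0.375% higher and 0.358% lower in NIL-qigl1HD385), and 0 of the 10 genes, by limma and also by limma voom on recovered reads. At an unadjusted p under 0.05 in limma, 1 of the 10 genes passed, RDR6 (2 passed in voom), against 17.0% of all tested loci (9.79% higher and 7.20% lower). The 3 values of one line lay beyond those of the other in 2 of the 10 genes, RDR6 and AGO7, against 26.5% of all tested loci. Of the 10 log2 differences, 3 were above 0 and 7 below it, with a median of -0.08, while the median over all tested loci was 0.02.

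**Figure D1:**
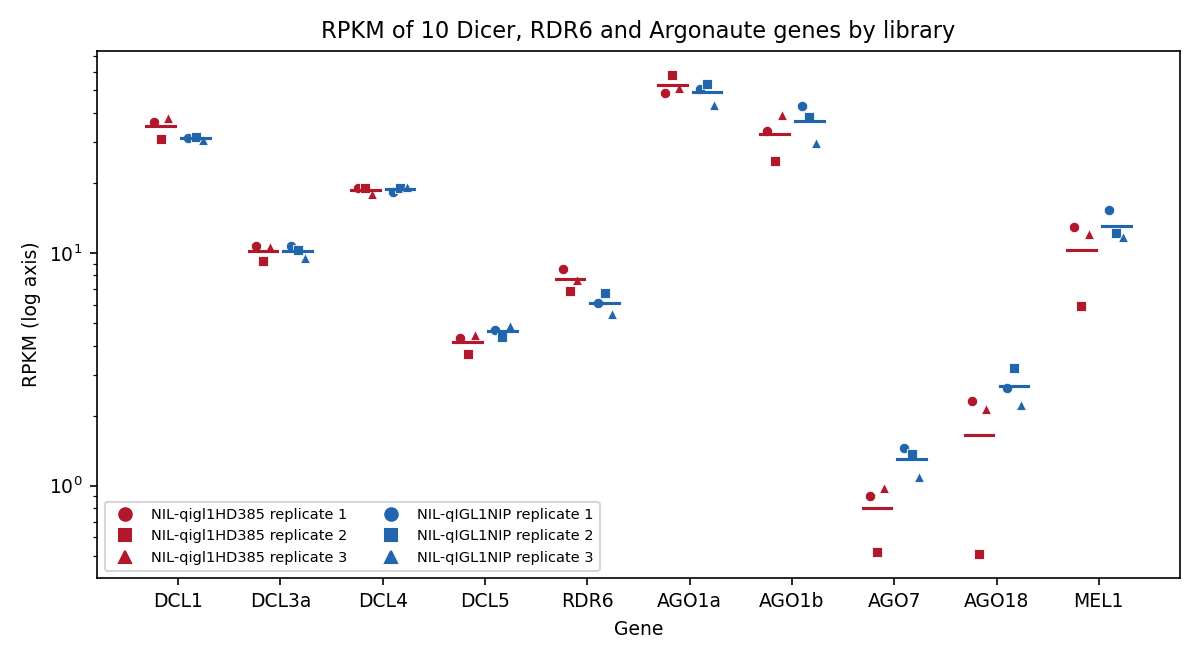
RPKM (log axis) of the 10 genes in the 6 libraries. Red symbols on the left of each gene are the 3 NIL-qigl1HD385 libraries, blue symbols on the right the 3 NIL-qIGL1NIP libraries, and bars the line means; the square of NIL-qigl1HD385 replicate 2 lies far below the rest in AGO18 and MEL1.

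The Dicers averaged 4.39 (DCL5) to 33.1 RPKM (DCL1) over the 6 libraries. DCL1 (LOC_Os03g02970), which makes most microRNAs, had 36.5, 30.9 and 38.1 RPKM in NIL-qigl1HD385 replicates 1, 2 and 3, against 31.1, 31.5 and 30.6 RPKM in NIL-qIGL1NIP. Replicates 1 and 3 of NIL-qigl1HD385 were above all NIL-qIGL1NIP libraries and replicate 2 was among them. The log2 difference, NIL-qigl1HD385 minus NIL-qIGL1NIP on the log2(RPKM + 0.5) scale throughout, was 0.17 (SE 0.10, 95% interval -0.08 to 0.42, adjusted p = 0.448). Without NIL-qigl1HD385 replicate 2 it was 0.26 with an interval of 0.04 to 0.47, and the adjusted p stayed at 0.338. With any other 1 library left out the interval included 0, at differences of 0.11 to 0.18.

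DCL3a (LOC_Os01g68120), which makes the small interfering RNAs that guide DNA methylation at transposons and repeats, had 10.7, 9.23 and 10.6 RPKM in NIL-qigl1HD385 and 10.7, 10.3 and 9.55 RPKM in NIL-qIGL1NIP. The lines overlapped, with a log2 difference of -0.0037 (SE 0.10, 95% interval -0.25 to 0.25, adjusted p = 0.99).

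DCL4 (LOC_Os04g43050) had 19.0, 19.1 and 18.0 RPKM in NIL-qigl1HD385, against 18.3, 18.9 and 19.2 RPKM in NIL-qIGL1NIP. It was the steadiest of the 10 genes within the lines: its residual SD was 0.04 on the log2 scale, and only 1.27% of the tested loci had a smaller one. Between the lines it differed by -0.0082 on the log2 scale, with a 95% interval of -0.20 to 0.19, that is, a fold between 0.868 and 1.14 (adjusted p = 0.97).

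DCL5 (LOC_Os10g34430), a Dicer of grasses that arose beside DCL3 and acts in anthers, had 4.32, 3.68 and 4.43 RPKM in NIL-qigl1HD385, against 4.68, 4.35 and 4.85 RPKM in NIL-qIGL1NIP. Replicate 2 of NIL-qigl1HD385 was the lowest and the other values of the line fell within or beside the NIL-qIGL1NIP range. It gave a log2 difference of -0.14 (SE 0.12, 95% interval -0.43 to 0.14, adjusted p = 0.569).

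DCL4 and DCL5, the Dicers of the phasiRNA classes, were also set against each other within each library. DCL5 made up 18.5, 16.1 and 19.8% of the summed RPKM of DCL4 and DCL5 in NIL-qigl1HD385 replicates 1, 2 and 3, against 20.4, 18.7 and 20.1% in NIL-qIGL1NIP. The means were 18.2 ± 1.85% in NIL-qigl1HD385 and 19.7 ± 0.91% in NIL-qIGL1NIP (SD, n = 3 each), and the values of the lines overlapped. The difference of -1.59 percentage points had a two-sided exact permutation p of 0.20, where 3 libraries against 3 cannot give less than 0.10. Without NIL-qigl1HD385 replicate 2 the difference was -0.59 points.

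RDR6 (LOC_Os01g34350), which turns cleaved precursor transcripts into double-stranded RNA, had 8.52, 6.89 and 7.66 RPKM in NIL-qigl1HD385, against 6.08, 6.73 and 5.47 RPKM in NIL-qIGL1NIP. All NIL-qigl1HD385 libraries lay above all NIL-qIGL1NIP libraries, though replicate 2 of NIL-qigl1HD385 and replicate 2 of NIL-qIGL1NIP were close. In reads, RDR6 had 1622, 1348 and 1394 in NIL-qigl1HD385 against 1290, 1287 and 964 in NIL-qIGL1NIP. The means were 7.69 ± 0.82 RPKM for NIL-qigl1HD385, against 6.09 ± 0.63 RPKM for NIL-qIGL1NIP (SD, n = 3 each), and the log2 difference was 0.31 (SE 0.13, 95% interval 0.0085 to 0.62, adjusted p = 0.285). The unadjusted limma p was 0.0455, and 16.0% of the tested loci had a smaller p. Over 15 other settings the difference ranged from 0.24 to 0.38, with a smallest adjusted p of 0.213. The 95% interval included 0 without the variance trend and with the replicate number as a block. It also included 0 without replicate 1 or replicate 3 of either line.

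**Figure D2:**
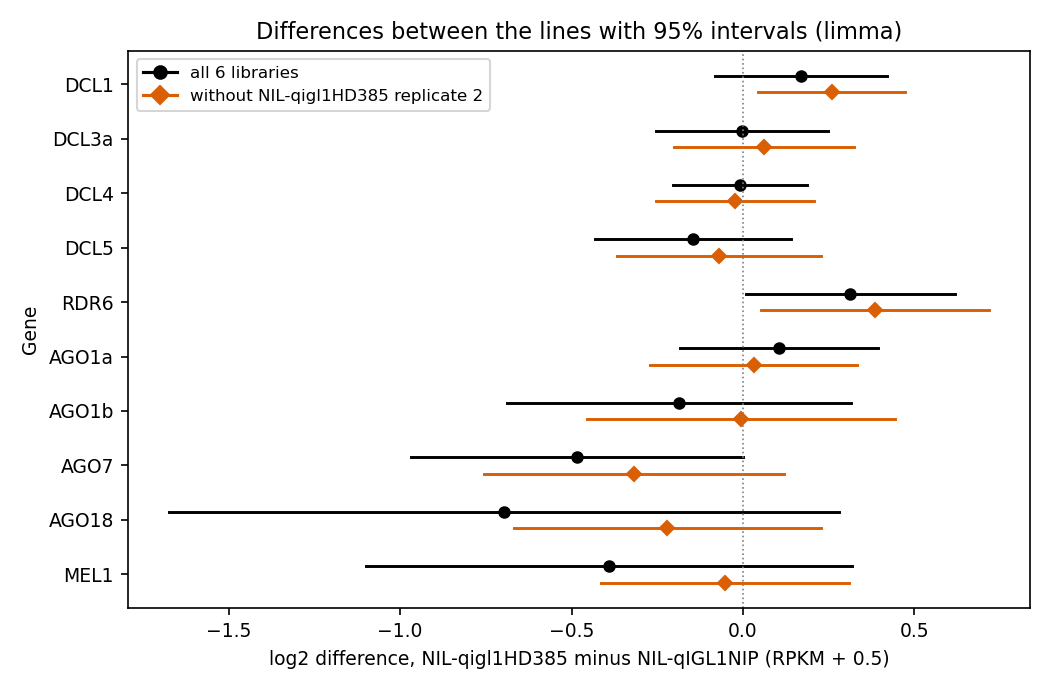
Log2 difference, NIL-qigl1HD385 minus NIL-qIGL1NIP, of log2(RPKM + 0.5) for each gene, with the 95% interval from limma, over all 6 libraries (black) and without NIL-qigl1HD385 replicate 2 (orange). AGO18 has the widest interval, -1.67 to 0.28, which narrows to -0.67 to 0.23 without that library; DCL4 has the narrowest over all 6 libraries.

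AGO1a and AGO1b encode Argonautes of the microRNA pathway and were the most abundant of the 5 Argonaute genes described. LOC_Os06g51310, of the wider family list described below, was higher than both in every library, at 112 to 151 RPKM. AGO1a (LOC_Os02g45070) had 48.6, 58.4 and 51.1 RPKM in NIL-qigl1HD385, against 50.8, 53.2 and 43.1 RPKM in NIL-qIGL1NIP. The highest value was in NIL-qigl1HD385 replicate 2 and the lowest in NIL-qIGL1NIP replicate 3, and the lines overlapped. AGO1a had a log2 difference of 0.11 (SE 0.12, 95% interval -0.18 to 0.39, adjusted p = 0.685).

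AGO1b (LOC_Os04g47870) had 33.6, 24.8 and 39.3 RPKM in NIL-qigl1HD385, against 42.8, 38.3 and 29.6 RPKM in NIL-qIGL1NIP. Here NIL-qigl1HD385 replicate 2 was the lowest library, in contrast to AGO1a, and NIL-qIGL1NIP replicate 3 was again the lowest of its line. For AGO1b the log2 difference came to -0.19 (SE 0.21, 95% interval -0.69 to 0.31, adjusted p = 0.679), and -0.0058 without NIL-qigl1HD385 replicate 2.

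The balance between these paralogs was read per library. AGO1a made up 59.2, 70.2 and 56.5% of the summed RPKM of AGO1a and AGO1b in NIL-qigl1HD385 replicates 1, 2 and 3, against 54.3, 58.1 and 59.3% in NIL-qIGL1NIP. Replicate 2 of NIL-qigl1HD385 stood above the other 5 libraries, which all lay between 54.3 and 59.3%. The means were 62.0 ± 7.25% in NIL-qigl1HD385 and 57.2 ± 2.63% in NIL-qIGL1NIP (SD, n = 3 each), a difference of 4.75 percentage points (two-sided exact permutation p = 0.50, smallest possible 0.10), and the difference was 0.63 points without NIL-qigl1HD385 replicate 2. If reads of similar paralogs were split or dropped in counting, the shares would move with it, and the treatment of such reads is not stated.

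AGO7 (LOC_Os03g33650), the Argonaute that starts the making of trans-acting small interfering RNAs and is needed for shoot meristem formation in rice, was the least abundant gene. It had 0.9001, 0.517 and 0.977 RPKM in NIL-qigl1HD385 (156, 92 and 162 reads), against 1.45, 1.37 and 1.08 RPKM in NIL-qIGL1NIP (280, 238 and 174 reads). All NIL-qigl1HD385 values lay below all NIL-qIGL1NIP values, with replicate 3 of each line nearest to the other line. Its log2 difference was -0.48 (SE 0.20, 95% interval -0.97 to 0.00045, adjusted p = 0.295), and -0.32 without NIL-qigl1HD385 replicate 2. At this low level the added 0.5 RPKM shrinks the difference: the ratio of the means was 0.614, and the fold from the fit was 0.715.

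AGO18 (LOC_Os07g28850), an Argonaute of grasses known in rice for its part in antiviral defence, had 2.30, 0.509 and 2.13 RPKM in NIL-qigl1HD385, against 2.63, 3.22 and 2.22 RPKM in NIL-qIGL1NIP. Replicates 1 and 3 of NIL-qigl1HD385 were at or beside the lower end of NIL-qIGL1NIP, and replicate 2 was far below all others, at 0.230 of the mean of the other libraries of its line. In reads, these values stood for 383, 87 and 339 in NIL-qigl1HD385 against 488, 538 and 342 in NIL-qIGL1NIP. The log2 difference was the largest of the 10 in size, -0.70, but so was its error (SE 0.41, 95% interval -1.67 to 0.28, adjusted p = 0.427). Without NIL-qigl1HD385 replicate 2 the difference was -0.22 (SE 0.18, 95% interval -0.67 to 0.23, adjusted p = 0.665).

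MEL1 (LOC_Os03g58600) had 12.97, 5.92 and 12.04 RPKM in NIL-qigl1HD385, against 15.3, 12.1 and 11.7 RPKM in NIL-qIGL1NIP. Replicates 1 and 3 of NIL-qigl1HD385 lay within the NIL-qIGL1NIP range, and replicate 2 was at 0.473 of their mean. The reads were 2106, 987 and 1870 in NIL-qigl1HD385 against 2767, 1982 and 1765 in NIL-qIGL1NIP. The log2 difference was -0.39 (SE 0.29, 95% interval -1.10 to 0.32, adjusted p = 0.536), and -0.05 (SE 0.15, 95% interval -0.41 to 0.31, adjusted p = 0.91) without NIL-qigl1HD385 replicate 2. In whole panicles, fewer cells of a type and less RNA per cell cannot be told apart.

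The genes differed in how far single libraries departed from their line. NIL-qigl1HD385 replicate 2 held the lowest value of its line in 8 of the 10 genes, against 52.0% of all tested loci. The exceptions were AGO1a and DCL4, in both of which it was the highest. Its log2 deviation from the mean of the other libraries of the line was -1.43 for AGO18, -1.02 for MEL1, -0.54 for AGO1b and -0.50 for AGO7, and between -0.27 and 0.22 for the other 6 genes. Of all tested loci, 2.62% deviated further down in this library than AGO18 and 5.10% further than MEL1. NIL-qIGL1NIP replicate 3 was also the lowest of its line in 8 of the 10 genes, against 54.1% of all tested loci. The exceptions were DCL4 and DCL5, and deviations in the 8 genes ran from -0.45 at AGO1b to -0.03 at DCL1. AGO18 and MEL1 also had the largest residual SDs of the 10 genes on the log2 scale, 0.61 and 0.44, and 92.7% and 85.6% of the tested loci had smaller ones. The median residual SD of the 10 genes was 0.14, against 0.20 over all tested loci.

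**Figure D3:**
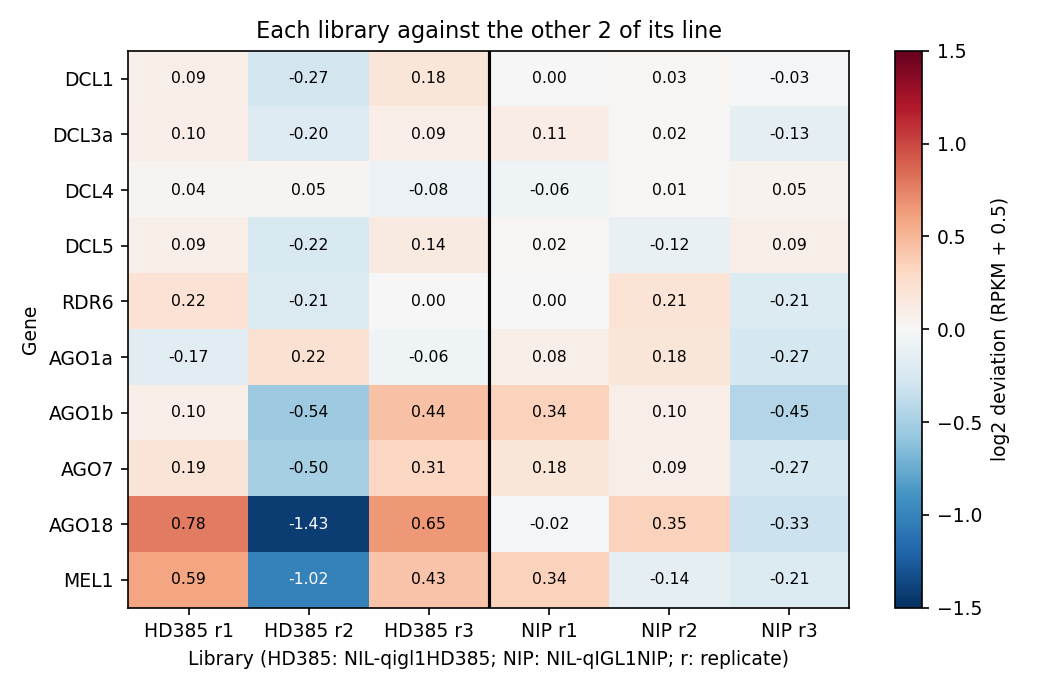
Log2 deviation of each library from the mean of the other libraries of its line, for each gene (rows), in NIL-qigl1HD385 (left of the line) and NIL-qIGL1NIP (right). The darkest cells are AGO18 (-1.43) and MEL1 (-1.02) in NIL-qigl1HD385 replicate 2, while DCL4 runs from -0.08 to 0.05 over the libraries.

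Marker lists differed in NIL-qigl1HD385 replicate 2: anther, meiosis and floral organ sums were lowest of the line, while the green leaf sum was close to that of replicate 1. Their identifiers came from general knowledge of rice genes, since the files do not pair identifiers with names, so they are given as lists. The 6 loci taken as anther wall and tapetum markers summed to 182, 70.3 and 124 RPKM in NIL-qigl1HD385 replicates 1, 2 and 3, against 254, 286 and 203 RPKM in NIL-qIGL1NIP, and all 6 were lowest of their line in replicate 2. The 5 loci taken as germ cell and meiosis markers summed to 42.4, 30.3 and 39.7 RPKM in NIL-qigl1HD385. In NIL-qIGL1NIP they summed to 49.8, 43.4 and 57.7 RPKM. All 5 were again lowest in NIL-qigl1HD385 replicate 2, which was lowest of its line at 52.0% of all tested loci. The sums of both lists were lower in all NIL-qigl1HD385 libraries than in any NIL-qIGL1NIP library. LOC_Os04g51070 gave most of the anther sum in each library, and LOC_Os09g32930 most of the meiosis sum. Locus by locus, the lines did not overlap in 4 of 6 and 3 of 5, against 26.5% of all tested loci.

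The 4 floral organ loci summed to 503 to 772 RPKM in NIL-qigl1HD385, lowest in replicate 2, and to 875 to 924 RPKM in NIL-qIGL1NIP. The lines did not overlap in 3 of these 4 loci, against 26.5% of all tested loci. They overlapped in LOC_Os03g11614, the largest part of the sum (log2 difference -0.08, adjusted p = 0.792 in limma). The 4 green leaf loci went the other way between the lines, with sums of 209, 217 and 168 RPKM in NIL-qigl1HD385 replicates 1, 2 and 3. In NIL-qIGL1NIP they summed to 127 to 153 RPKM. Replicate 2 of NIL-qigl1HD385 was the highest of its line at 2 of the 4 leaf loci and the lowest at 1, the called locus named below. None of the 15 anther, meiosis and floral loci was called by limma (9 passed an unadjusted p under 0.05, all lower in NIL-qigl1HD385, against 7.2% of all tested loci in that direction; 0 were called by voom). The marker lists were set with earlier results of these data known. Against 0.375% of all tested loci called higher, 1 of the 4 leaf loci, LOC_Os12g17600, was called higher by limma (log2 difference 1.27, adjusted p = 0.0444) and 0 by voom; it is named here after its values were seen. Within NIL-qIGL1NIP the meiosis sum was highest in replicate 3, where AGO18, MEL1 and the anther sum were lowest of their line. By locus, 3 of the 5 meiosis loci were highest in that library, and of the 6 anther loci 3 were lowest and 1 was highest. The part of tissue makeup or stage in the AGO18, MEL1 and AGO7 values was not tested.

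**Figure D4:**
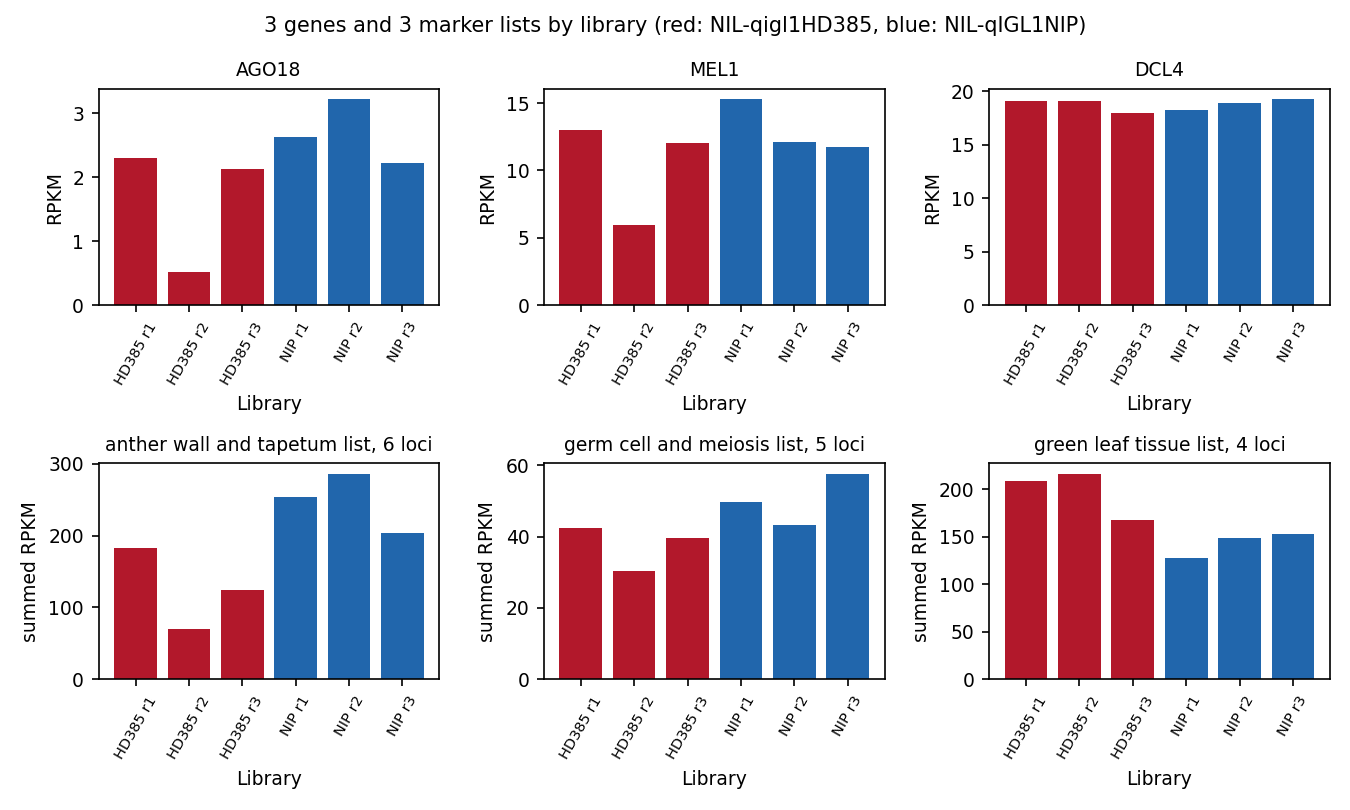
RPKM of AGO18, MEL1 and DCL4 (top) and summed RPKM of 3 marker lists (bottom) in the 3 NIL-qigl1HD385 libraries (red) and the 3 NIL-qIGL1NIP libraries (blue). NIL-qigl1HD385 replicate 2 is lowest for AGO18 (0.509 RPKM), MEL1 (5.92 RPKM), the anther list (70.3 RPKM) and the meiosis list (30.3 RPKM). It is not lowest for DCL4 (19.1 RPKM). Within NIL-qIGL1NIP, replicate 3 is lowest for AGO18, MEL1 and the anther list, and highest for the meiosis list.

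Over all 6 libraries the genes kept nearly the same order of level in RPKM. AGO1a averaged 50.9 ± 5.04 RPKM (SD, n = 6) and was above AGO1b in 6 of 6 libraries, by 1.19 to 2.36 times. AGO1b (34.7 ± 6.72 RPKM) and DCL1 (33.1 ± 3.30 RPKM) did not differ beyond their spread, as AGO1b was higher in 3 of 6 libraries. DCL4 followed at 18.8 ± 0.52 RPKM, below DCL1 in 6 of 6.

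MEL1 (11.7 ± 3.10 RPKM) and DCL3a (10.2 ± 0.65 RPKM) overlapped, with MEL1 above in 5 of 6 libraries and below in NIL-qigl1HD385 replicate 2. RDR6 (6.89 ± 1.09 RPKM) and then DCL5 (4.39 ± 0.40 RPKM) came next, each below the gene before it in 6 of 6 libraries. AGO18 (2.17 ± 0.90 RPKM) was above AGO7 (1.05 ± 0.34 RPKM) in 5 of 6, the exception again being NIL-qigl1HD385 replicate 2. Among the tested loci, 90.6% had a lower mean level than AGO1a, 64.6% a lower one than MEL1 and 11.7% a lower one than AGO7.

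Profiles over the 6 libraries were compared by the root mean square difference of mean-centred log2(RPKM + 0.5) values, as a description. The profile nearest to AGO18 was that of MEL1 (0.27), and the nearest to MEL1 was that of AGO7 (0.20). AGO7 and AGO1b were nearest to each other (0.17). DCL1 and DCL3a were nearest to each other (0.10), DCL3a was also nearest to DCL4 and DCL5, DCL1 to RDR6, and DCL4 to AGO1a. Small distances among the Dicers go with their small ranges, since flat profiles are always close to each other.

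A list of 22 further loci of the Dicer, Argonaute and RNA-dependent RNA polymerase families was set from general knowledge of the published rice families, and its loci carry no names in the files. All 22 had reads, and 19 passed the level filter and were tested. Of these, 1 was called higher and 0 lower in NIL-qigl1HD385, against 0.733% of all tested loci called in either direction. In limma, 3 higher and 1 lower passed an unadjusted p under 0.05, against 9.79% and 7.2% of all tested loci. Their log2 differences ranged from -0.65 to 0.99 with a median of -0.05, and the 3 values of one line lay beyond those of the other in 5 of 19, a share near the 26.5% of all tested loci.

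The called locus was LOC_Os03g38740, with 31.6, 29.98 and 27.7 RPKM in NIL-qigl1HD385 against 13.3, 17.1 and 13.8 RPKM in NIL-qIGL1NIP. All NIL-qigl1HD385 libraries were well above all NIL-qIGL1NIP libraries, including replicate 2. The log2 difference was 0.99 (SE 0.12, adjusted p = 0.0255 in limma). It lost the call when any 1 library other than NIL-qIGL1NIP replicate 2 was left out, at adjusted p of 0.096 to 0.107, with differences of 0.93 to 1.04.

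**Figure D5:**
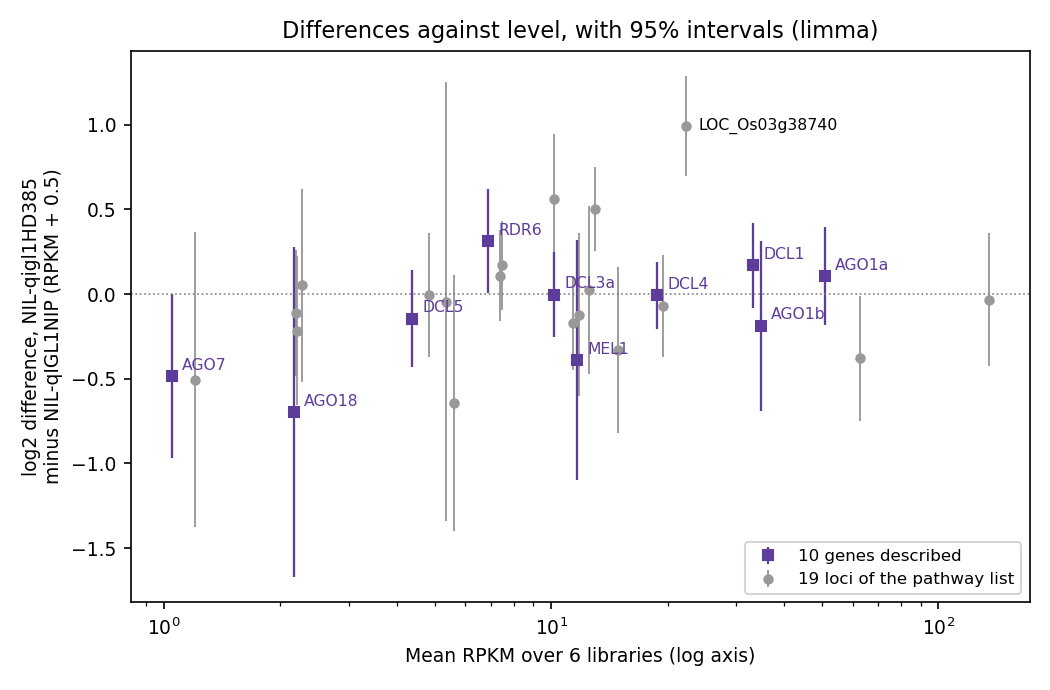
Log2 difference, NIL-qigl1HD385 minus NIL-qIGL1NIP (y axis), against the mean RPKM over the 6 libraries (x axis, log) for the 10 genes (purple squares) and 19 tested loci of the wider list (grey circles), with 95% intervals from limma. LOC_Os03g38740 at 0.99 is the called locus; most other intervals include 0.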

How the data were processed

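The authors deposited 1 table of RPKM values for 46732 loci in 6 libraries; per the labels' protocols, stranded mRNA libraries were read as pairs on a DNBSEQ-T7. Subread 1.5.1 with featureCounts, edgeR 3.12.1 and Trimmomatic 0.36 are named, without roles, per the submitters' processing notes; the aligner, build and strand setting were not given in the sources used here. Reads of overlapping or near-identical loci may thus be mixed.

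Gene names came with the choice of loci. The RefSeq gene table (assembly ASM3414082v1) matched 0 locus identifiers, but lists 7 of the 10 names, all 7 on the chromosome the identifier gives. Genes and lists were chosen with earlier results of these data known. No sequences are shown.

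Library totals, gene lengths and reads were recovered from the steps of the RPKM values with Python 3.11.15: 100% of non-zero values fell within 0.003 (plus 2e-08 of the value) of a whole read count, searching lengths of 60 to 17000 bases, and reads summed to 97.9 to 98.2% of the totals. The log2(RPKM + 0.5) values were fitted in R 4.3.3 with limma 3.58.1 and a trended eBayes variance, two-sided, with Benjamini-Hochberg adjustment over the 23181 loci that averaged 0.5 RPKM or more. Both steps were also run on simulated data. The simulation for the fit gave all loci the same dispersion and held no outlying library, so it does not speak to genes such as AGO18 and MEL1. The length of each locus was the smallest that met the whole-read tolerance, so the 100% share was partly built in. Shares were compared by an exact permutation test with scipy 1.17.1. All 10 genes are named, and of the wider list the called loci and LOC_Os06g51310, which is given for its level. Alternatives were 2 pseudocounts, 2 filters, 2 scalings, no variance trend, the replicate number as a block, voom on recovered reads, and each library left out.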

Additional observations from a re-analysis of the deposited data

How the results depend on the processing

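Of the 10 genes, 0 were called in any of the 15 alternatives (AGO7 was not tested at a mean RPKM of at least 2), by limma or voom. In 149 refits the direction held in 144; the exceptions, with 1 library left out, were DCL3a (-0.048 to 0.062) and DCL4 (-0.029 to 0.020). The 170 called loci numbered 94 at a mean RPKM of at least 2, 46 with the replicate number as a block and 84 to 112 with 1 library left out. The block also left 0 called loci of the wider list (LOC_Os03g38740 had the same log2 difference, 0.99, at adjusted p = 0.162), and leaving out 1 library left 0 to 1, fewer libraries being fitted. The block called 0 of the 10 genes. Nothing in the labels pairs the libraries, and same-numbered deviations correlated across loci at -0.28, -0.25 and -0.41. The AGO1a share difference was 0.63 to 7.47 points and the DCL5 share difference -2.42 to -0.59 points with 1 library left out, and neither changed sign on recovered reads. The edgeR test planned on recovered reads was not run, and voom was the only fit made on those reads. With 3 libraries a line, intervals of AGO18 and MEL1 include changes of 2-fold.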
